A study of Homo sapiens with 2 samples.

Results

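RET, ALK, NGFR and STRA6 are 4 cell-surface receptor genes of neural crest and neuroblastoma biology. Their rows were found by the gene symbol in the platform's annotation of the value table. Each symbol matched 1 probe set (a group of short probes read as 1 value), so the 4 genes were 4 of 46255 rows and 4 of the 14812 genes that have a symbol there. The samples were 2 cultures of the MYCN-amplified human neuroblastoma line BE(2)C. One received an siRNA directed at MYCN and the other a non-targeting control siRNA, both delivered by lipofection, and RNA was isolated 36 hours later and read on 1-colour Affymetrix gene arrays. The siRNAs came from different suppliers, all cells belong to a single line, and each group is 1 array, so no value below has a replicate and no test between groups was possible.

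RET is a receptor tyrosine kinase that binds ligands of the GDNF family through GPI-anchored GFRA co-receptors, and it is needed for the development of enteric and sympathetic neurons. ALK is a receptor tyrosine kinase of the developing nervous system that is activated by the ALKAL ligands and is recurrently mutated in neuroblastoma. NGFR, also called p75NTR, is a member of the TNF receptor family that binds all neurotrophins, works with sortilin-type and other partners, and marks neural crest and Schwann cells. STRA6 is the membrane receptor that takes up retinol from its plasma carrier, the first step towards retinoic acid, which induces differentiation of neuroblastoma cells. MYCN is a basic helix-loop-helix factor that binds E-boxes with its partner MAX.

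The sequences before the start sites of the receptor genes are shown because MYCN, the factor targeted by the siRNA, binds E-boxes. The RefSeq promoter table (GRCh38.p14) held 3 of the 4 genes: 2 start sites of RET, 2 of ALK and 5 of STRA6; NGFR had no entry. The 250 bases before a start are written 5′ to 3′ on the strand of the gene, for the outermost start of each gene and for the internal start of ALK, chosen because it alone of the 9 windows held the canonical word. Capitals mark the 6-base words searched on both strands, which were the canonical E-box CACGTG, its variants CATGTG and CACGCG, and CAGCTG, an E-box of other helix-loop-helix factors.
RET, chr10:43076819-43077068, plus strand: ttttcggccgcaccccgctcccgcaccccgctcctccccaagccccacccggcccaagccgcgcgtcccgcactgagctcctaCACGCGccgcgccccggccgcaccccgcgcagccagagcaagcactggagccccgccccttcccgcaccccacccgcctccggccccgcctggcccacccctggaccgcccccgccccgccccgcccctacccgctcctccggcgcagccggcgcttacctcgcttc
ALK, outermost start, chr2:29921587-29921836, minus strand: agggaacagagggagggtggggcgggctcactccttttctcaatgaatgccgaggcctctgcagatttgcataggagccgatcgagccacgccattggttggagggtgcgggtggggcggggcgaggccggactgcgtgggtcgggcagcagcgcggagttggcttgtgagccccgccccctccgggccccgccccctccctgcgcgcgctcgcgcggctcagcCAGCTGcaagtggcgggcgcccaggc
ALK, internal start, chr2:29223824-29224073, minus strand: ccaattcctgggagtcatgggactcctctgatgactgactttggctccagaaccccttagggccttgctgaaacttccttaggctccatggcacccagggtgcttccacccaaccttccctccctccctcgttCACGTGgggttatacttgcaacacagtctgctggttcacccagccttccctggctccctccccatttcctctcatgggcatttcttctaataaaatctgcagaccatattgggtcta
STRA6, chr15:74212260-74212509, minus strand: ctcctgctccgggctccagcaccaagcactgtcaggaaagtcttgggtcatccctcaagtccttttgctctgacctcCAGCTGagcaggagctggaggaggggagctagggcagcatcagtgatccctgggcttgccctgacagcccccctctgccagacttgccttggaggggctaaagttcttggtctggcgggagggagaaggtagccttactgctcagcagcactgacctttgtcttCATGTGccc

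In the RET window the word CACGCG began 167 bases before the start, and there was no CACGTG. The outermost ALK window held CAGCTG 26 bases before the start, while its internal start had a canonical CACGTG at 117 bases. The STRA6 window held CATGTG 9 bases and CAGCTG 173 bases before the start. Of the 5 windows not printed, 1 of RET and 4 of STRA6, none held CACGTG and 2 held none of the 4 words. Such words are common: of 35116 promoter windows of this length, 6.34% held CACGTG, 9.42% CATGTG, 9.72% CACGCG and 13.99% CAGCTG. The windows differed in base composition. The outermost windows of RET and ALK were 79.6% and 71.6% G or C with 5 and 4 copies of the GC box GGGCGG, a word found on either strand in 42.6% of all windows, whereas the STRA6 window was 59.6% G or C and had none. The array rows are not tied to a particular start site, and a matching word is not a binding site.

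RET had the largest difference of the 4 genes. It read 8.87 with control siRNA and 9.79 with MYCN siRNA, on the log2 scale of RMA, the authors' normalization. The MYCN siRNA array was therefore 0.91 higher, or 1.88-fold. Of 10592 measured genes, 318 (3.00%) were at least as far above the control; a gene counted as measured when its probe sets, averaged, reached the row median of either array. Among the 971 measured genes whose mean level lay within 0.5 of that of RET, 12 (1.24%) had a difference at least as high.

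STRA6 read 9.97 with control siRNA and 10.6 with MYCN siRNA. The difference was 0.61, or 1.53-fold higher. Of all measured genes, 847 (7.997%) were as high or higher in difference, but of the 482 genes within 0.5 of its level the number was 15 (3.11%). RET and STRA6 thus lay near the upper edge of the differences of genes with a like signal. Both were far above the array medians of 4.60 and 4.55.

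ALK read 6.94 with control siRNA and 7.30 with MYCN siRNA, a difference of 0.35 (1.28-fold higher). That is well inside the cloud of other genes: 2023 measured genes (19.1%) and 447 of the 1916 within 0.5 of its level (23.3%) were at least as far above the control. NGFR was the only one of the 4 genes that was lower in the MYCN siRNA array. It read 5.48 with control siRNA and 5.02 with MYCN siRNA, a difference of −0.46 (1.37-fold lower). Of the measured genes, 1037 (9.79%) were as low or lower in difference, and 219 of the 2462 within 0.5 of its level (8.90%). The NGFR values were 0.87 and 0.46 above the medians of their arrays, so NGFR is not shown to be above background in either.

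**Figure D1:**
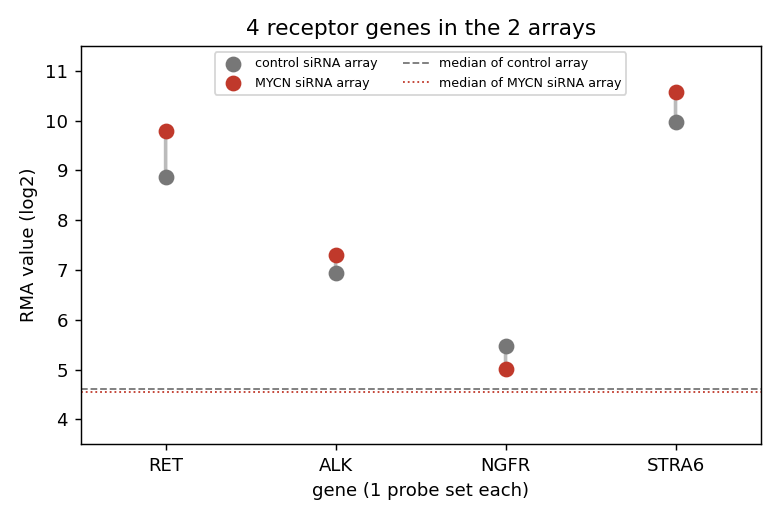
RMA values (log2) of RET, ALK, NGFR and STRA6 in the control siRNA array (grey) and the MYCN siRNA array (red), 1 probe set and 1 array per point, with the median of each array as a horizontal line. RET, ALK and STRA6 are higher and NGFR is lower in the MYCN siRNA array, and the NGFR points lie close to the medians of 4.60 and 4.55.

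None of the 4 genes reached a 2-fold difference. Over all measured genes, 2.21% had a 2-fold or larger difference upwards and 1.16% one downwards. At 1.5-fold, RET and STRA6 counted as higher, beside 8.81% of all measured genes, and none of the 4 as lower, beside 5.79%. The spread used is that between probe sets of the same gene on the same pair of arrays, an SD of 0.31 per probe set. It came from 374 genes and leaves out labelling, hybridisation and culture. Pairs of probe sets with equal differences but unlike levels were kept in, which lowers that SD. The difference of RET was 2.93 times that SD, that of STRA6 1.96 times, that of NGFR 1.47 times and that of ALK 1.14 times. The differences of all measured genes within 0.5 of each gene's level had larger SDs. These were 0.39 for RET, 0.34 for STRA6, 0.38 for NGFR and 0.46 for ALK.

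Among the 3 genes that were higher, the order is not separated by the spread between probe sets. The difference of RET exceeded that of ALK by 0.56, which is 1.27 times the SD expected of a gap between 2 probe sets, and that of STRA6 by 0.30 (0.68 times), and STRA6 exceeded ALK by less, 0.59 times that SD. The gaps to NGFR were 1.37 for RET (3.11 times), 1.07 for STRA6 (2.43 times) and 0.81 for ALK (1.84 times), but they rest on the low NGFR signal. In RNA of a whole culture, fewer cells of a kind and less RNA per cell cannot be told apart.

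**Figure D2:**
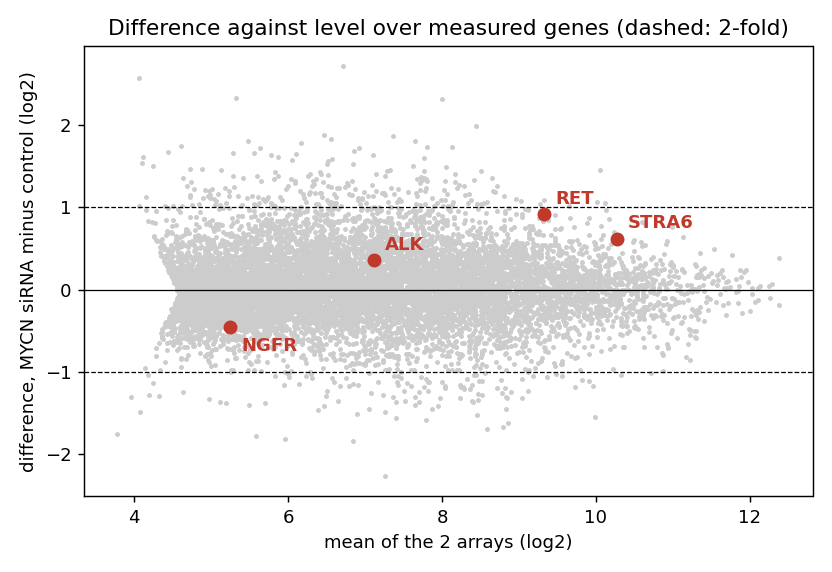
Difference between the MYCN siRNA and the control array (log2, y axis) against the mean of the 2 arrays (log2, x axis) for 10592 measured genes (grey), with RET, ALK, NGFR and STRA6 in red and 2-fold as dashed lines. RET, at 0.91, and STRA6, at 0.61, sit near the upper edge of the genes of their level, while ALK, at 0.35, and NGFR, at −0.46, lie inside the cloud.

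The measured ligands and co-receptors of RET differed little between the arrays. Of the 9 genes listed, 6 were measured, 4 of them higher and 2 lower, beside 50.9% and 48% of all measured genes. Their median was 0.04 beside 0.01 over all measured genes. Neurturin (NRTN), the ligand that prefers GFRA2, went from 6.10 with control siRNA to 6.34 with MYCN siRNA (0.24). GFRA2 itself was at 6.92 and 6.93 (0.01), a sign that turned under quantile normalization and loess. The other measured genes were the co-receptor GFRA3 at 0.10 and its ligand artemin (ARTN) at −0.28, and persephin (PSPN) at 0.06 and its co-receptor GFRA4 at −0.26, with values between 4.57 and 5.42. GFRA1, the co-receptor that prefers GDNF, and GFRAL were below the median in both arrays, and GDNF was not analysed here. RET was thus further above the control than any of its measured partners.

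Of the genes around ALK, 3 of 7 were measured and all 3 were higher, beside 50.9% of all measured genes, with a median of 0.40. LTK, the closest relative of ALK and a receptor for the same ligands, went from 6.10 to 6.77, a difference of 0.68 (1.60-fold higher). Pleiotrophin (PTN) and midkine (MDK), related heparin-binding growth factors that were proposed as ALK ligands, went from 8.34 to 8.74 (0.40) and from 9.27 to 9.53 (0.26). ALKAL1 and ALKAL2, the established ligands, were not analysed here.

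Of the 15 listed ligands and membrane partners of NGFR, 5 were measured. SORCS2, SORCS1, RTN4R and LINGO1, which reached the median in both arrays, were higher in the MYCN siRNA array, beside 50.9% of all measured genes. SORCS2, a sortilin-family co-receptor for pro-neurotrophins, went from 6.14 to 6.93 (0.79, 1.73-fold higher), and its relative SORCS1 from 7.81 to 8.20 (0.39). RTN4R, the Nogo receptor that signals with NGFR, was at 5.98 and 6.41 (0.43). LINGO1, the third part of that complex, was at 5.67 and 5.73 (0.06). Neurotrophin-4 (NTF4), at 4.57 and 4.76 (0.19), counted as measured only through the MYCN siRNA array. BDNF (−0.20) and SORCS3 (−0.54) lay below the median in both arrays. The median was 0.39 over the 5 measured genes and 0.19 with these 2 included, so it depends on the filter. NTF3, SORT1 and SORL1 were among the 8 listed genes not analysed here.

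Inside the cell, 8 of 15 listed partners of NGFR were measured, 5 higher and 3 lower, beside 50.9% and 48% of all measured genes. Their median was 0.09. The highest were ZNF274, a zinc-finger repressor, which went from 6.75 to 7.43 (0.69), BEX3, the adaptor once named NADE, from 5.83 to 6.39 (0.56), and the sheddase ADAM17, at 0.21. The lowest were the kinase RIPK2 at −0.43, PRDM4 at −0.32 and the kinase IRAK1 at −0.28. RELT and CD27, the only other measured members of the TNF receptor family of 28 listed, were at −0.25 and −0.24, both lower, beside 48% of all measured genes. With 24 of those 28 genes not analysed here, the family cannot be described.

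The measured retinoid genes around STRA6 went both ways. Of 17 genes of retinoid uptake and metabolism, 5 were measured, with a median of −0.08. There were 2 higher and 3 lower, beside 50.9% and 48% of all measured genes. RDH10, which oxidises retinol to retinal inside the cell, was the furthest, from 8.69 to 8.001 (−0.69, 1.61-fold lower). CRABP2, which carries retinoic acid to the nucleus, went from 6.46 to 6.72 (0.27). RDH11, a retinal reductase, was at 0.02, transthyretin (TTR), which carries the retinol-binding protein in plasma, at −0.08, and the retinal reductase DHRS3, which counted as measured only through the control array, at −0.15. STRA6 and RDH10, which act one after the other on retinol, therefore had differences of similar size and opposite sign.

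Of 14 retinoic acid receptors and target genes, 3 were measured. The homeobox gene TLX2 was at −0.27, RARRES2 (chemerin) at 0.00 and the corepressor NRIP1 at 0.04, where its brighter probe set gave −0.12. The receptors RARA, RARB, RARG, RXRA, RXRB and RXRG and the retinoic acid hydroxylases of the CYP26 family were not analysed here.

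Of 25 listed adaptors and other signalling partners of receptor tyrosine kinases, 15 were measured, with a median of 0.06. There were 11 higher and 4 lower, beside 50.9% and 48% of all measured genes. SOS2, a RAS exchange factor, went from 7.77 to 8.93 (1.16, 2.24-fold higher). With probe sets averaged, it was the only measured gene of the 10 lists of receptor partners and relatives to pass 2-fold. The brighter of the 2 probe sets of EGR1, an ERK output gene, also passed 2-fold (1.02), while their average was 0.46. SHC1, an adaptor bound by activated RET and ALK, went from 9.68 to 10.5 (0.77, 1.71-fold higher), and GAB2, a docking protein for PI3-kinase, from 5.86 to 6.49 (0.63). The lowest were STAT3 at −0.27, the neuronal adaptor SHC3 at −0.13 and GAB1 at −0.06. SOS1, the paralog of SOS2, was at 0.05.

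Genes that ERK signalling induces, many of them feedback inhibitors, were higher in 9 and lower in 6 of 15 measured cases. Over all measured genes the shares were 50.9% and 48%, and the median of the list was 0.14. DUSP4, an ERK phosphatase, went from 8.18 to 8.80 (0.63), IER3 from 6.15 to 6.76 (0.61) and ETV5, a PEA3-family factor downstream of RET and ALK signalling, from 8.32 to 8.79 (0.47). FOS was at −0.39, SPRY4, an inhibitor of receptor tyrosine kinase signalling, at −0.27 and ETV1 at −0.21. ETV5 therefore differed in sign from ETV1 and ETV4 (−0.10), of the same family. The differences of ETV1 and ETV4 were smaller than the SD of 0.31 between probe sets, so their signs are not secure.

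Among other receptor tyrosine kinases, 33 of 52 were measured, 16 higher, 15 lower and 2 equal, with a median of 0.00. EPHB3, an ephrin receptor, had the highest difference at 0.84 (5.63 to 6.47), followed by FLT1 at 0.74 and INSRR at 0.62. KDR was at −0.65, though it and FLT1 lay close to the array medians, the insulin receptor INSR at −0.60 (7.04 to 6.45) and EPHA1 at −0.41. RET, at 0.91, lay above all 33, and ALK, at 0.35, below 7 of them. KDR and CSF1R (−0.38), both among the lower genes, counted as measured only through the control array. Across the 10 lists of partners and relatives, which held 95 measured genes, 56 (58.9%) were higher, beside 50.9% of all measured genes, and 36 lower. Of the 95, 1 was past 2-fold upwards, beside 2.21% of all, and none downwards, beside 1.16%.

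**Figure D3:**
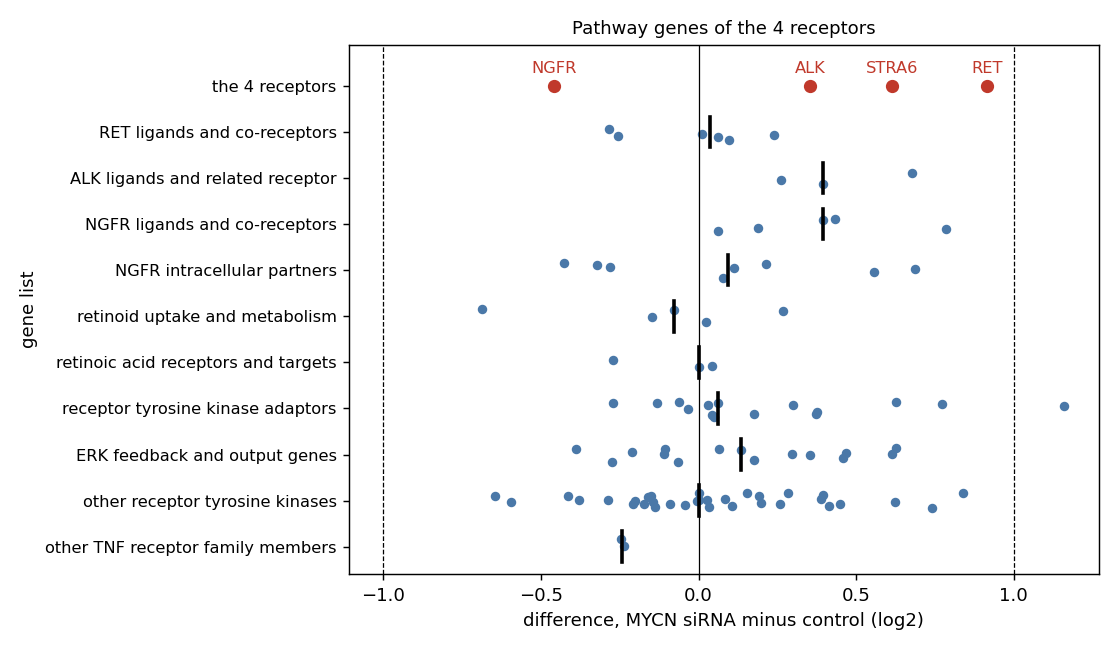
Differences (log2, MYCN siRNA minus control, x axis) of the measured genes in 10 lists of receptor partners and relatives (blue points, 1 gene each, spread vertically for legibility), with the median of each list as a black bar, the 4 receptors in red and 2-fold as dashed lines. RET, at 0.91, lies to the right of every point except SOS2, at 1.16, and the 3 measured genes around ALK lie between 0.26 and 0.68.

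The cell line was checked against markers chosen for its lineage. Of 14 listed noradrenergic markers, 10 had a row, and these read 6.47 to 11.7 in the control array. Markers of other cell types reached the array median too, so these levels alone do not set the lineage apart. Of the 10, 8 were higher in the MYCN siRNA array (median 0.10), beside 50.9% of all measured genes. DBH, which makes noradrenaline, was at 1.45 and was the only 1 of the 10 at least 1.5-fold higher, beside 8.81% of all measured genes. The next were DDC at 0.38 and CHGB at 0.30. The lowest were ISL1 at −0.43, HAND2 at −0.09 and STMN2 at 0.02. The 11 measured sympathoadrenal transcription factors, 4 of them also among the noradrenergic markers, had a median of −0.03. They ran from MEIS2 at −0.99, ISL1 at −0.43 and HAND2 at −0.09 to PHOX2A at 0.12, TBX2 at 0.16 and GATA2 at 0.23. The 6 measured Schwann and glial markers, cells that carry NGFR, lay between 5.01 and 6.19 in the control array. S100B was at 1.02 (5.90 to 6.92), ERBB3 was at 0.00 and 4 were lower, led by SOX10 at −0.28, beside 48% of all measured genes. The summed linear value of the 6 was 275 with control siRNA and 311 with MYCN siRNA, or 216 and 190 without S100B. Most of the 6 markers read lower than NGFR in the control array, so those are not shown to be above background either. The part of Schwann and glial cells in the NGFR value was not tested. The 7 measured mesenchymal markers had a median of 0.00, with LUM at −1.17 and VIM at 0.57. The probe sets of VIM disagreed, at 0.85, −0.06 and 0.91, and PRRX1 (−0.51) counted as measured only through the control array. The 3 haematopoietic markers were LCP1 at −0.92, CSF1R at −0.38 and CD68 at 1.74. Their median was the value of CSF1R, which counted as measured only through the control array. Over the other 2 the median was 0.41.

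The genes next to the receptors were compared, taking the nearest 2 measured genes on each side in RefSeq order. Beside RET on chromosome 10, the adjacent protein-coding gene CSGALNACT2, an enzyme of chondroitin sulfate synthesis, went from 6.96 to 8.57. That difference of 1.61 (3.04-fold higher) exceeded that of RET, and with RET it forms an adjacent pair that was higher in the MYCN siRNA array. ZNF33B on the other side was at 0.37, and FXYD4 and LINC00839 were at −0.40 and −0.38, so the pattern did not extend over all 4 neighbours.

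Beside STRA6 on chromosome 15, the adjacent gene ISLR, a secreted leucine-rich repeat protein, went from 6.56 to 7.23 (0.67, 1.59-fold higher), close to the 0.61 of STRA6. CCDC33 on the other side was at 0.09, LOC283731 at 0.26 and the pseudogene PPIAP46 at −0.60. ALK lies on chromosome 2, on the arm that also holds MYCN. YPEL5, adjacent among protein-coding genes, went from 5.25 to 6.05 (0.79), LBH was at −0.13, PCARE at −0.26 and WDR43, a ribosome assembly factor, at −0.57 (9.67 to 9.10). Beside NGFR on chromosome 17, the adjacent gene PHB1, prohibitin, went from 7.08 to 6.65 (−0.43), close to the −0.46 of NGFR. KAT7 was at −0.54, ZNF652 at −0.09 and SPOP at 0.18.

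**Figure D4:**
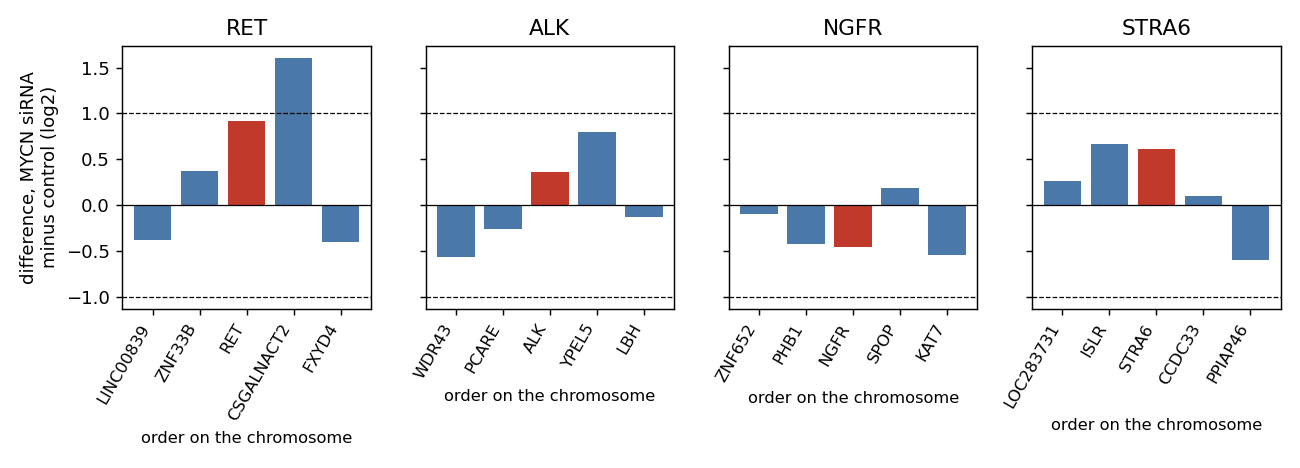
Differences (log2, MYCN siRNA minus control, bars from 0) of RET, ALK, NGFR and STRA6 (red) and of the nearest 2 measured genes on either side in RefSeq order (blue), with 2-fold as dashed lines. CSGALNACT2, at 1.61, is the only neighbour past 2-fold, and ISLR and PHB1 lie close to STRA6 and NGFR.

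With 2 arrays, the likeness of another gene's pattern is a single number, the distance between differences. The nearest protein-coding genes were TADA3 (0.91) and TMEM30A (0.91) for RET, SERINC1 (0.61) and AGBL4 (0.61) for STRA6, NOTO (0.35) and CSRNP2 (0.35) for ALK, and GATA6 (−0.46) and PRPF19 (−0.46) for NGFR. This measure does not set the named genes apart. Of the protein-coding genes, 87 lay within 0.05 of RET, 269 within 0.05 of STRA6, 369 within 0.05 of NGFR and 597 within 0.05 of ALK.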

How the data were processed

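RNA of 2 BE(2)C cultures, 1 per group, was labelled (100 ng, WT PLUS kit) and hybridised to Human Gene 2.0 ST arrays of Affymetrix, per the labels' protocols. The authors' deposited log2 values, 1 per probe set, came from RMA, per the submitters' processing notes; the sources used here do not state its settings, its version or which arrays were normalized together. The title of the control array says reanalysis, unexplained. Whatever it refers to cannot be told apart from the siRNA in any difference given here. Both columns have near-equal distributions, so a change in total RNA per cell would not show.

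The annotation named 15835 of 46255 rows, none with several symbols, and left 30420 unnamed here; current symbols came from RefSeq by gene identifier. Probe sets of a gene were averaged. Measured genes (10592 of 14812) reached the row median in at least 1 array. Differences are the MYCN siRNA value minus the control value. The level of MYCN is not reported here. Precision is limited by the number of arrays.

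The 4 genes and 15 gene lists were chosen with earlier results of these data known. Named were the 4 genes and all measured genes of the ligand and co-receptor lists. Of each other list, the 3 highest, the 3 lowest and any past 2-fold were named. For the Schwann, mesenchymal and haematopoietic lists this was only the ends, apart from PRRX1 and CSF1R, named because of the filter. The neighbours and the nearest 2 in difference were named too, and SOS1 and ETV4 were added after their values were seen. Python 3.11.15, pandas 2.3.3 and statsmodels 0.14.6 were used, and the scripts were tested on simulated data.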

Additional observations from a re-analysis of the deposited data

How the results depend on the processing

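The differences of the 4 genes kept their sign and stayed under 2-fold with median centring, quantile normalization, loess (span 0.3), 16 added to the linear values and the brightest probe set. Some of these settings say little here. The brightest probe set returns the same value for a gene with 1 probe set. Adding 16 shrinks a difference but cannot turn its sign, and median centring added the same 0.05 to every difference. RET ran from 0.89 to 0.96, STRA6 from 0.61 to 0.66, ALK from 0.28 to 0.40 and NGFR from −0.46 to −0.32. The count of measured genes at least 2-fold higher was 234, or 124 with 16 added, and 933 at 1.5-fold; that of lower genes was 123, and 613 at 1.5-fold. Some list medians moved by more than the spread between probe sets allows. Without a filter on low values the NGFR ligands and co-receptors had a median of 0.19; with a filter at the 70th percentile the other receptor tyrosine kinases had one of 0.15, the 2 remaining Schwann and glial markers 0.37 and the 2 remaining haematopoietic markers 0.41, which was also the value without genes of another list. Without such genes the noradrenergic median was 0.24. These settings take in more or fewer genes. The median of all measured genes was itself 0.05 with the 70th percentile filter, beside 0.01 as reported. The small median of the sympathoadrenal factors turned to 0.02 with median centring and 0.01 with loess, and that of retinoid uptake and metabolism to 0.02 with the 70th percentile filter. The median of all measured genes was 0.06 with median centring and 0.03 with loess, so both lists stayed below that of all measured genes. No paired analysis was possible because each group has 1 array. No probe set of the 4 genes had a second one to set beside it, and NGFR, ARTN, NTF4 and DHRS3 lie close to the array medians, so low signal limits their differences.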

Other observations

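Among the 10592 measured genes, 123 (1.16%) had the same value in both arrays to 4 decimals, ERBB3 and RARRES2 among them. TADA3 had the same difference as RET to 4 decimals, and SERINC1 the same as STRA6.

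The 2 probe sets of the immediate-early gene EGR1, looked up after its values were seen, disagreed. One went from 7.79 to 8.81 (1.02) and the other from 4.90 to 4.801 (−0.10). Their average, 0.46, is the value counted for EGR1 among the ERK output genes, so EGR1 does not count as past 2-fold.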
